A study of Mus musculus with 8 samples.

Results

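The Cyp2 family of cytochrome P450 genes was followed across the hearts of female and male mice at 8 and 2 months of age. Members were the array rows whose gene symbol begins with Cyp2 and a letter. They made up 18 of the 9607 rows of the deposited table. Of these, 13 rows named 1 gene each and 5 named several near-identical genes, which are called here by probe number. The family was selected on its ratios of the female to the male pool on these same arrays, so the values of its members are given as a description, with no test. Each array compared 2 pools of total RNA in 2 dyes, Cy3 and Cy5. The pools were the 8-month female pool, the 8-month male pool, the 2-month female pool and the 2-month male pool, each from 6 whole hearts of C57BL/6 mice, an inbred strain. The labels name no treatment, transgene or mutant allele in any group. The female pool was set against the male pool of its own age on 4 technical arrays, labelled with Cy3 on replicates 1 and 3 and with Cy5 on replicates 2 and 4.

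Enzymes of the Cyp2 family are haem proteins of the endoplasmic reticulum that insert 1 atom of oxygen into drugs, steroids and fatty acids, with electrons from NADPH passed on by the reductase Por. Liver holds most of them, and in mouse liver several differ between the sexes. In the heart the family is known chiefly for the epoxygenases of the Cyp2j and Cyp2c groups, which turn arachidonic acid into signalling lipids, while Cyp2f2 marks the club cells of the airway.

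All values below are log2 ratios of the female over the male pool, so that 1 is a doubling in the female pool and a negative value means lower in the female pool. At each age the 2 dye orientations were averaged with equal weight to remove dye effects. The SD beside a mean is the spread of the technical arrays of the same pools, not of animals. The labels give no individual hearts, and with 1 pool per sex at each age no test across animals exists at 1 age. A row was counted when each age had values in both orientations on at least 3 of 4 arrays. Of all rows 7812 passed, among them 16 of the 18 Cyp2 rows. Cyp2b19 and Cyp2c65 did not pass. Ratios carry no level, so members cannot be ranked by abundance, and fewer cells of a type cannot be told apart from less RNA per cell.

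On replicates 1 and 2 at 8 months the ratios drifted with the feature number, that is, along the layout of the array. A running median over neighbouring features had an SD of 0.507 and 0.822 on these arrays, against 0.0327 to 0.0722 on the other arrays. Over all tested rows these 2 arrays correlated at -0.45, and at -0.05 after the running median was subtracted. At the positions of the Cyp2 probes the local median lay between -0.58 and 0.66 on replicate 1 and between -1.10 and 1.14 on replicate 2, but between -0.13 and 0.14 elsewhere. The 8-month values of the Cyp2 rows rest partly on these arrays and are therefore also given from replicates 3 and 4 or with the local median subtracted. Replicates 3 and 4 at 8 months, which differ in dye, correlated at only -0.07 over all tested rows, and at -0.06 after subtraction. At 2 months pairs of opposite dye correlated at 0.01 to 0.26, and pairs of the same dye at 0.78 and 0.86. Low drift on replicates 3 and 4 therefore does not mean that they match over all rows. The pools matched their labels: Xist was higher in the female pool on 8 of 8 arrays, and the Y-linked Eif2s3y and Kdm5d were lower on 8 of 8.

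A row passed the size rule when it differed by at least 1.5-fold with 1 sign on every array of the age. At 8 months 3 of the 16 Cyp2 rows were higher in the female pool by this rule, Cyp2b10, Cyp2b9 and Cyp2d9, and 0 were lower. At 2 months 6 were higher, Cyp2b10, Cyp2f2, Cyp2a12, Cyp2e1 and the 2 probes for Cyp2a5 and Cyp2a4, and 0 were lower. Cyp2b10 was the one member past the rule at both ages. The same rows passed with the drift subtracted, and with replicates 3 and 4 alone Cyp2f2 passed too at 8 months, on the male side. Of all tested rows 1.68% were higher and 1.31% lower at 8 months, and 2.41% were higher and 1.77% lower at 2 months. The family was chosen on this contrast, so nothing is read from its counts beside these shares. Over both ages, limma with Benjamini-Hochberg adjustment called 5 rows higher in the female pools, which is 0.064% of all rows. That fit is used below for genes outside the family only, and at an unadjusted p below 0.05 it took in 811 rows, or 10.4% of those tested. The median of the 16 rows was 0.05 at 8 months and 0.31 at 2 months, beside -0.03 and -0.02 over all tested rows.

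**Figure D1:**
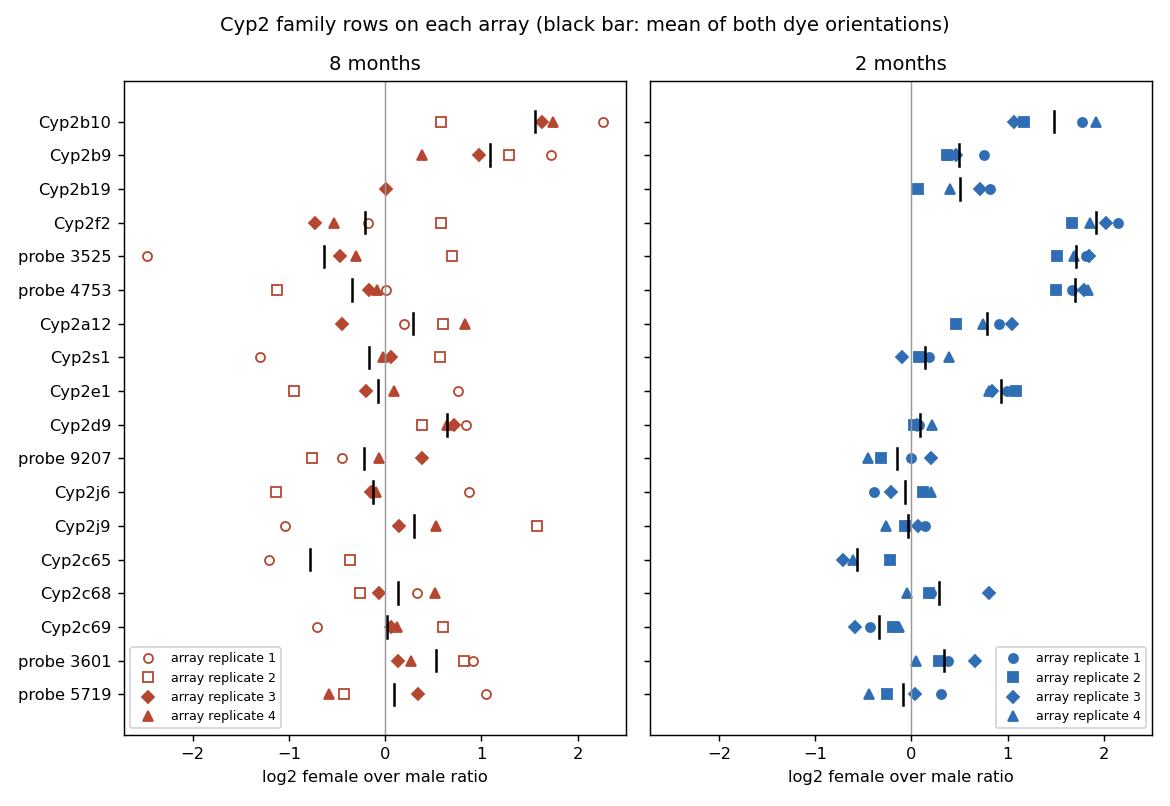
Log2 ratio of the female over the male pool (horizontal axis) for each of the 18 Cyp2 rows on each array, with 8 months on the left and 2 months on the right. Symbols mark the array replicates, open for the drifting replicates 1 and 2 at 8 months, and black bars mark the mean of both dye orientations; at 2 months the arrays of Cyp2f2 and of probes 3525 and 4753 all lie above 1.4, at 8 months they spread around and below 0.

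The Cyp2b group holds inducible enzymes of drug and steroid oxidation. Cyp2b10, the classic target gene of the xenobiotic receptor Nr1i3 in mouse liver, had log2 ratios of 2.27, 0.58, 1.63 and 1.74 on replicates 1 to 4 at 8 months, against 1.77, 1.17, 1.07 and 1.92 at 2 months. All 8 arrays lay on the female side, and the ages overlapped. The mean was 1.55 ± 0.71 at 8 months and 1.48 ± 0.42 at 2 months (SD, n = 4 arrays each), or 2.93-fold and 2.79-fold higher in the female pool. These means stood at the 99.7th percentile of all tested rows at 8 months and the 99.45th at 2 months. The drift was large here: at the position of its probe the local median was 0.66 on replicate 1 and -1.10 on replicate 2. With the local median subtracted, the 4 arrays at 8 months were at 1.61, 1.67, 1.69 and 1.70, with a mean of 1.67 ± 0.04. This SD was the smallest of the 16 rows after subtraction, whose median SD was 0.423.

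Cyp2b9, a female-predominant steroid hydroxylase in mouse liver, had log2 ratios of 1.72, 1.29, 0.97 and 0.38 on the 8-month arrays, against 0.76, 0.37, 0.46 and 0.38 on the 2-month arrays. It too was on the female side on all 8 arrays, and replicate 4 at 8 months lay within the range of the 2-month arrays. The mean was 1.09 ± 0.56 at 8 months and 0.49 ± 0.18 at 2 months (SD, n = 4 arrays each), a difference of 0.60 whose arrays overlapped. Replicates 3 and 4 alone gave 0.67 at 8 months, which leaves a difference of 0.18. Cyp2b19, a keratinocyte enzyme that makes epoxides of arachidonic acid, was measured on 1 array at 8 months, at 0.01, and at 0.81, 0.07, 0.71 and 0.40 at 2 months. It was listed at exactly 0, taken as no measurement, on the other 8-month arrays and therefore has no 8-month mean. The 3 Cyp2b genes are close paralogs read by cDNA probes, and how far each probe also reads RNA of the others was not tested.

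The promoter windows of Cyp2b10 and Cyp2b9 are shown because both genes were on the female side on every array and lie near each other on chromosome 7. They are credited to RefSeq on GRCm38.p6 and run from 250 bases before to 50 after the start, at chr7:25897408-25897707 for Cyp2b10 and chr7:26173159-26173458 for Cyp2b9, both on the plus strand. Capitals mark a CCAAT match on either strand in Cyp2b10 and the half-site AGGTCA of nuclear receptors in Cyp2b9.
Cyp2b10: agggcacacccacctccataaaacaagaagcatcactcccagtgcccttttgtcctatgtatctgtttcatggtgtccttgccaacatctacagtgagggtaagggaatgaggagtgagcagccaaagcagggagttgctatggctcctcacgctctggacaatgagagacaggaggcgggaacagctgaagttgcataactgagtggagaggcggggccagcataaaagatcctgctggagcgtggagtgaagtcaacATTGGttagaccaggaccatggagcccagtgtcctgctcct
Cyp2b9: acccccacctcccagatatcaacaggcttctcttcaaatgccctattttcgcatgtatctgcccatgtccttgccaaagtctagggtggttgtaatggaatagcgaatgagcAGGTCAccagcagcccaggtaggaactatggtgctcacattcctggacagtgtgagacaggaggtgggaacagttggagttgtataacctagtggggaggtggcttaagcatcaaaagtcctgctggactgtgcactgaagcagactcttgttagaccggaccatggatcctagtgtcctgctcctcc
The 2 windows were identical at 71.7% of aligned positions. The window of Cyp2b19 shared 69.0% with that of Cyp2b10 and 65.9% with that of Cyp2b9. Among all other pairs of the 13 promoter windows, Cyp2c68 and Cyp2c69 shared 91.1% and the rest at most 50.5%. AGGTCA began at base -138 in Cyp2b9 and had no match in the Cyp2b10 window, where the inverted CCAAT began at base 10. The letters AGGTCA occur in 16.3% of the 32851 windows of the table and in 3 of the 13 Cyp2 windows, those of Cyp2b9, Cyp2b19 and Cyp2f2. CCAAT occurs in 37.4% of all windows and in 7 of the 13. These are matches of letters searched on both strands, and the data show no binding there.

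**Figure D2:**
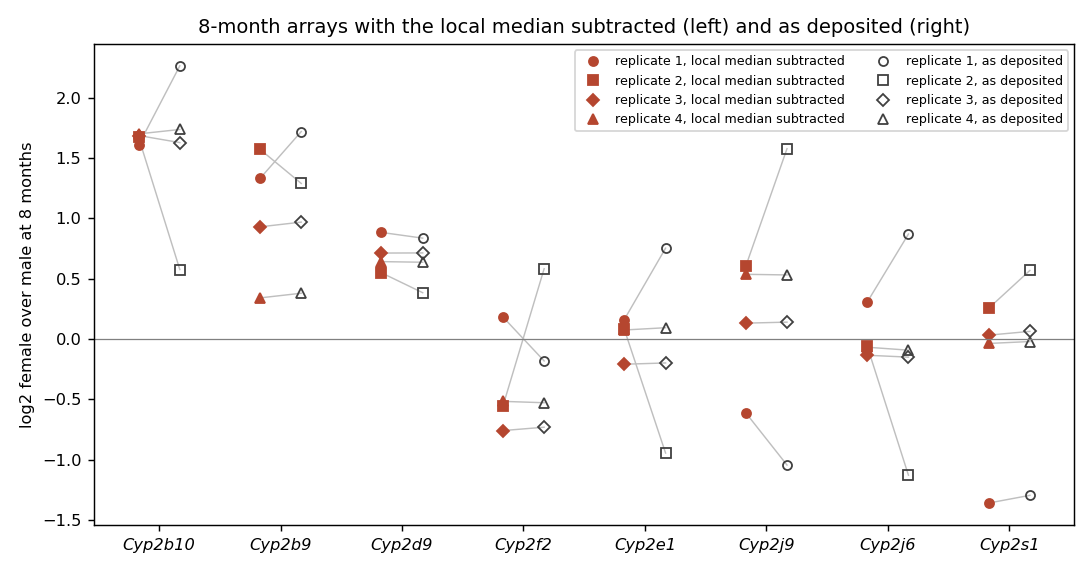
Log2 ratio of the female over the male pool at 8 months (vertical axis) for 8 Cyp2 genes on each array, with the local median along the feature number subtracted (filled, left) and as deposited (open, right), grey lines joining the same array. The 4 arrays of Cyp2b10 close up to 1.61 to 1.70 after subtraction, those of Cyp2e1 gather near 0, and replicate 1 of Cyp2s1 stays below -1. Cyp2c68 and probe 9207, whose SD rose on subtraction, are not drawn.

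Cyp2f2, which oxidises naphthalene in the club cells of mouse airway, had log2 ratios of -0.18, 0.58, -0.73 and -0.53 on the 8-month arrays, against 2.14, 1.67, 2.02 and 1.85 on the 2-month arrays. The ages did not overlap: every 2-month array lay above every 8-month array, and 3 of the 4 at 8 months were below 0. The mean was -0.22 ± 0.58 at 8 months and 1.92 ± 0.21 at 2 months (SD, n = 4 arrays each), or 1.16-fold lower in the female pool at 8 months and 3.78-fold higher at 2 months. The difference of 8 minus 2 months was -2.14. The local median on replicate 2 at 8 months, the array above 0, was 1.14 at this probe, and without the drift that array was at -0.56 and replicate 1 at 0.18. From replicates 3 and 4 alone the 8-month mean was -0.63.

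Probes 3525 and 4753 are both annotated to Cyp2a5 and Cyp2a4, which are near-identical. The first is a coumarin hydroxylase and the second a testosterone hydroxylase, and the array cannot tell their RNAs apart. Probe 3525 had log2 ratios of -2.48, 0.70, -0.47 and -0.30 at 8 months, against 1.81, 1.51, 1.85 and 1.68 at 2 months. Probe 4753 had 0.01, -1.12, -0.17 and -0.09 at 8 months, against 1.66, 1.496, 1.79 and 1.83 at 2 months. At 2 months the probes gave the same picture, with means of 1.71 ± 0.15 and 1.70 ± 0.15. At 8 months they parted on replicates 1 and 2. Probe 3525 was at -2.48 and probe 4753 at 0.01 on replicate 1, and they were at 0.70 and -1.12 on replicate 2. The local median at probe 3525 on replicate 1 was 0.07. With the drift subtracted they still parted, at -2.55 and -0.44 on replicate 1 and at 0.31 and -0.82 on replicate 2. Their 8-month means were -0.64 ± 1.33 and -0.34 ± 0.52 (SD, n = 4 arrays each), and from replicates 3 and 4 alone -0.39 and -0.13. Neither probe had any overlap between the ages, and the difference of 8 minus 2 months was -2.35 for probe 3525 and -2.04 for probe 4753.

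Cyp2a12, a further testosterone hydroxylase of the Cyp2a group, had log2 ratios of 0.20, 0.60, -0.45 and 0.82 at 8 months, against 0.91, 0.46, 1.04 and 0.74 at 2 months. All 2-month arrays were on the female side, while the 8-month arrays were split and overlapped them. Its mean was 0.29 ± 0.56 at 8 months and 0.79 ± 0.25 at 2 months (SD, n = 4 arrays each), a difference of -0.50. Replicates 3 and 4 alone, which lay on opposite sides of 0, gave 0.19 at 8 months.

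Cyp2e1, which oxidises ethanol and acetone, had log2 ratios of 0.75, -0.95, -0.20 and 0.09 at 8 months, against 1.00, 1.09, 0.84 and 0.81 at 2 months. The 2-month arrays lay close together on the female side and above all 8-month arrays, which fell on both sides of 0. The mean was -0.07 ± 0.70 at 8 months and 0.93 ± 0.13 at 2 months (SD, n = 4 arrays each), or 1.05-fold lower and 1.91-fold higher in the female pool, with a difference of -1.01. With the drift subtracted the 8-month arrays were at 0.16, 0.08, -0.21 and 0.07, a mean of 0.03 ± 0.16.

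Across the family, 4 rows passed the size rule for the difference of the ages, which asks for a gap of 1.5-fold or more and for all arrays of one age to lie beyond those of the other. All were lower at 8 months: Cyp2f2, Cyp2e1 and probes 3525 and 4753. Of all tested rows 1.72% were lower and 1.57% higher at 8 months by this rule. The same 4 rows passed it with the drift subtracted and with the 8-month value from replicates 3 and 4. Each value is a ratio within an age, so a change in the female pool and one in the male pool cannot be told apart.

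**Figure D3:**
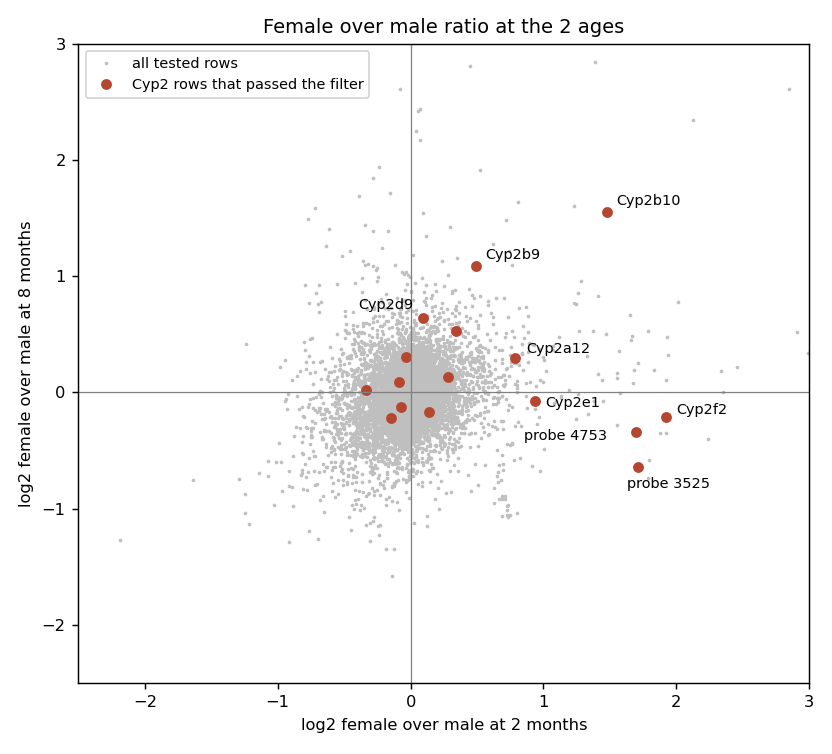
Log2 ratio of the female over the male pool at 8 months (vertical axis) against 2 months (horizontal axis), each point being 1 tested row (grey) or 1 of the 16 Cyp2 rows that passed the filter (red); 14 tested rows lie outside the plotted range. Cyp2b10 is high on both axes, Cyp2b9 and Cyp2d9 are high at 8 months, and Cyp2f2, Cyp2e1 and probes 3525 and 4753 lie to the right and below 0 at 8 months.

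The windows of Cyp2f2 and Cyp2e1 are shown because these named genes had the ratio that differed between the ages. Both come from RefSeq on GRCm38.p6, plus strand, at chr7:27119705-27120004 for Cyp2f2 and chr7:140763569-140763868 for Cyp2e1. Capitals mark AGGTCA and the glucocorticoid receptor half-site AGAACA in Cyp2f2, and in Cyp2e1 the TATA box TATAAA and CCAAT matches, which read ATTGG on this strand.
Cyp2f2: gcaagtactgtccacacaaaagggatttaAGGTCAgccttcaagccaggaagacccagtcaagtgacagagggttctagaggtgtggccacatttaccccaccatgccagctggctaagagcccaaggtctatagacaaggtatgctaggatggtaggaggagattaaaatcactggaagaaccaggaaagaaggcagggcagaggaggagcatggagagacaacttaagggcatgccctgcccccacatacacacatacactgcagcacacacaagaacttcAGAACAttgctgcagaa
Cyp2e1: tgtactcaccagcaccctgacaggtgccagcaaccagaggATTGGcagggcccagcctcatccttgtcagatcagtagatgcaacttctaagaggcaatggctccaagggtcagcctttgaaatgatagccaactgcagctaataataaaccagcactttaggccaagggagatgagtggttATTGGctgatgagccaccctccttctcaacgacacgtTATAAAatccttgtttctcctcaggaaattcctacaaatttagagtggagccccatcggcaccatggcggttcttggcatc
In Cyp2f2 the AGGTCA began at base -221 and AGAACA at base 34. In Cyp2e1 the TATAAA began at base -31, and CCAAT matches began at -210 and -68. TATAAA occurs in 13.6% of all windows and in 5 of the 13 Cyp2 windows, and AGAACA occurs in 19.0% and in 3. The letters TTCNNNGAA of STAT factors, which carry growth hormone signals in liver, occur in 8.30% of all windows and in 0 of the 13. A window without a match says only that these letters are not in these bases.

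Of the Cyp2d group, Cyp2d9, a male-predominant steroid hydroxylase of mouse liver, had log2 ratios of 0.84, 0.38, 0.71 and 0.64 at 8 months, against 0.08, 0.02, 0.05 and 0.22 at 2 months. All 8 arrays were on the female side, and the ages did not overlap. Its mean was 0.64 ± 0.19 at 8 months and 0.09 ± 0.09 at 2 months (SD, n = 4 arrays each), the difference of 0.55 being 1.46-fold and just under the size rule. Replicates 3 and 4 alone gave 0.68 at 8 months. Its 8-month SD was the smallest of the 16 rows, and its probe lay where the local median was -0.05 on replicate 1 and -0.17 on replicate 2. Probe 9207, annotated to Cyp2d10, Cyp2d11 and Cyp2d22, was at -0.22 ± 0.49 at 8 months and -0.15 ± 0.30 at 2 months, with arrays on both sides of 0 at each age and 0.16 from replicates 3 and 4 at 8 months.

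The Cyp2j genes, Cyp2j6 and Cyp2j9, had ratios near 0 at 2 months. Cyp2j6 had log2 ratios of 0.87, -1.13, -0.15 and -0.09 at 8 months, against -0.38, 0.12, -0.22 and 0.20 at 2 months. The local median at its probe was 0.57 on replicate 1 and -1.07 on replicate 2 at 8 months. Its 8-month mean was -0.13 ± 0.82 as deposited and 0.01 ± 0.20 with the drift subtracted. Cyp2j9 had -1.05, 1.58, 0.14 and 0.53 at 8 months, against 0.14, -0.07, 0.07 and -0.26 at 2 months. Both genes had arrays on either side of 0 at both ages, and their 2-month means were -0.07 ± 0.28 for Cyp2j6 and -0.03 ± 0.18 for Cyp2j9. The 8-month mean of Cyp2j9 was 0.30 ± 1.08, and 0.34 from replicates 3 and 4.

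Of the Cyp2c group, which in mouse liver oxidises steroids, drugs and fatty acids, 0 rows passed the size rule. Probe 3601, annotated to Cyp2c54 and Cyp2c50, was on the female side on all 8 arrays but under 1.5-fold, with means of 0.53 ± 0.39 at 8 months and 0.34 ± 0.26 at 2 months (SD, n = 4 arrays each). Replicates 3 and 4 alone gave 0.20 at 8 months. Probe 5719, annotated to Cyp2c29 and the pseudogene Cyp2c53-ps, was at 0.09 ± 0.75 and -0.09 ± 0.33. Its arrays divided by dye in the same way at both ages: with the female pool in Cy3 the mean was 0.69 at 8 months and 0.17 at 2 months, and with the female pool in Cy5 it was -0.51 and -0.35. From replicates 3 and 4, which differ in dye, its 8-month mean was -0.12. Cyp2c68 was at 0.13 ± 0.36 at 8 months, 0.22 from replicates 3 and 4, and at 0.28 ± 0.37 at 2 months. Cyp2c69 was at 0.02 ± 0.54 at 8 months, 0.09 from replicates 3 and 4, and at -0.34 ± 0.21 at 2 months, and all 4 of its 2-month arrays were on the male side. Cyp2c65 was measured on 2 arrays at 8 months, at -1.21 and -0.36, and on 3 at 2 months, at -0.22, -0.71 and -0.61. These arrays were all on the male side as deposited, but both 8-month arrays were the drifting ones, and with the local median subtracted they were at -1.78 and 0.67. It did not pass the filter.

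Cyp2s1, an epithelial enzyme outside the liver that dioxin-type ligands induce, had log2 ratios of -1.30, 0.57, 0.06 and -0.02 at 8 months, against 0.18, 0.08, -0.10 and 0.39 at 2 months. Replicate 1 at 8 months stood far on the male side, replicate 2 was on the female side, and replicates 3 and 4 gave a mean of 0.02. The local median at its probe was 0.06 on replicate 1, and with it subtracted that array was at -1.36 and the 8-month mean at -0.28 ± 0.73. The means were -0.17 ± 0.79 at 8 months and 0.14 ± 0.20 at 2 months (SD, n = 4 arrays each).

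In order of the 8-month mean, the 16 rows ran from Cyp2b10 at 1.55 and Cyp2b9 at 1.09 through Cyp2d9 at 0.64 and probe 3601 at 0.53 down to probe 4753 at -0.34 and probe 3525 at -0.64. At 2 months the order began with Cyp2f2 at 1.92, probe 3525 at 1.71, probe 4753 at 1.70, Cyp2b10 at 1.48, Cyp2e1 at 0.93 and Cyp2a12 at 0.79, and ended with Cyp2c69 at -0.34. All neighbours in the 8-month order differed by less than the larger of their SDs. At 2 months the step between Cyp2b10 and Cyp2e1 exceeded both of their SDs, 0.42 and 0.13, and that between Cyp2f2 and probe 3525 was about the SD of Cyp2f2, 0.21. The other steps among these first 6 rows were within the larger SD. The median SD of the 16 rows was 0.571 at 8 months and 0.208 at 2 months. Subtracting the drift brought the 8-month median SD to 0.423 and narrowed 14 of the 16 rows.

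The family was chosen on its ratios on these arrays, and the counts by position below use the same ratios. They describe the members and are no independent support for a grouping by position. In the RefSeq annotation of GRCm38.p6, chromosome 7 holds a run of 18 protein-coding genes from Cyp2s1 to Cyp2t4, of which 13 are Cyp2 genes, and 8 of the family's array rows belong there. Cyp2e1 lies elsewhere on chromosome 7, the Cyp2d genes on 15, the Cyp2c genes on 19 and the Cyp2j genes on 4. All 6 rows past the size rule at 2 months were of genes on chromosome 7, which is 6 of the 8 chromosome 7 rows that passed the filter, against 0 of the 8 rows of the other chromosomes. Probes 3525 and 4753, both in this count, are annotated to the same pair of genes. Among all tested genes of chromosome 7, 15 of 424, or 3.54%, were higher by the same rule at 2 months. This share counts genes, while the 6 of 8 counts array rows. Within the cluster, Cyp2s1 at one end had arrays on both sides of 0 at both ages, with means of -0.17 ± 0.79 at 8 months and 0.14 ± 0.20 at 2 months. Cyp2b10 and Cyp2b9 beside it were on the female side at both ages. The Cyp2a probes, Cyp2a12 and Cyp2f2 had higher ratios at 2 months than at 8 months, the arrays of Cyp2a12 overlapping. This grouping was noticed after the values were seen and has no test.

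**Figure D4:**
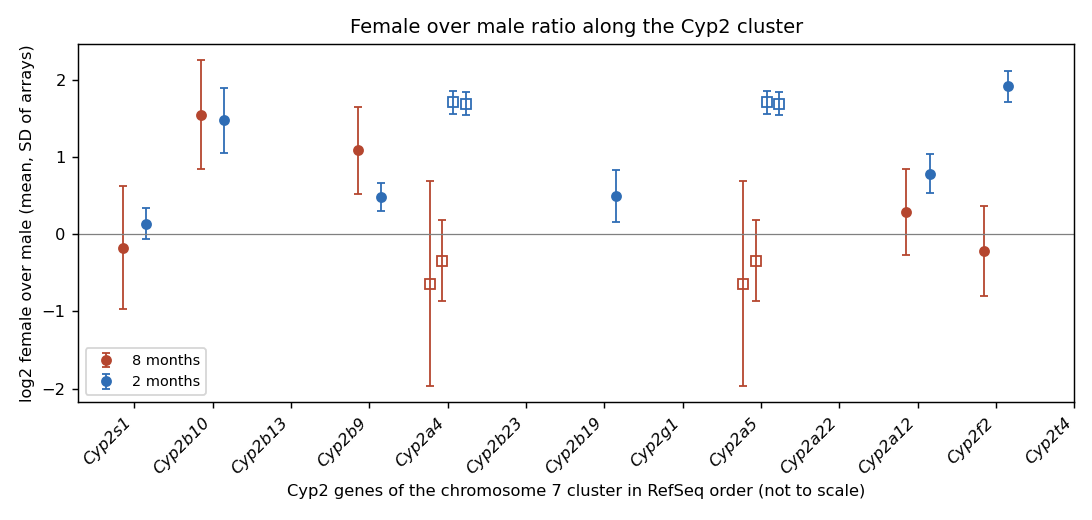
Log2 ratio of the female over the male pool (vertical axis; mean and SD of the arrays of an age) for the Cyp2 genes of the chromosome 7 cluster in RefSeq order, not to scale, with 8 months in red left of 2 months in blue. Open squares are probes 3525 and 4753, drawn at both Cyp2a4 and Cyp2a5 because the annotation pairs each with both, genes without a point have no row, and Cyp2b19 has no 8-month mean; Cyp2f2 and the Cyp2a squares stand near 1.7 to 1.9 at 2 months and below 0 at 8 months.

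The genes whose 8 ratios were most like those of a member were found by the root mean square difference over the 8 arrays, among 5632 other named rows. The ratios were used as deposited, with the drift of replicates 1 and 2 at 8 months left in. How far shared drift made up these matches was not tested. For Cyp2b10 the nearest were Nr4a1 at 0.572, Gla at 0.651 and Nusap1 at 0.705, and 0 rows lay within 0.5 of it. For Cyp2b9 they were Runx1 at 0.406, Exosc1 at 0.426 and Nt5e at 0.446. Cyp2f2 was nearest to Fasn at 0.449, Bpifb1 at 0.452 and Satb1 at 0.463. Bpifb1 was at -0.35 at 8 months and 1.92 at 2 months, and Fasn, the fatty acid synthase, was at -0.35 and 1.88. For Cyp2e1 the nearest were Slc25a1 at 0.121, Lrmp at 0.200 and Def6 at 0.224, and for Cyp2a12 Trgv1 at 0.307, Cd1d1 at 0.359 and Mt3 at 0.368. Cyp2d9 had EG385499 at 0.148, Fbln7 at 0.185 and Ppp1r3c at 0.226. Members with means near 0 resembled many rows, such as Cyp2j6 with 637 rows within 0.3 and Cyp2j9 with 133. On replicates 1 and 2 at 8 months Cyp2j6 was at 0.87 and -1.13, where the local median was 0.57 and -1.07. For Cyp2s1 the nearest were Mfng at 0.106, Rgn at 0.117 and Mdm2 at 0.126.

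Other genes of the P450 system are given beside all tested rows, of which 1.68% were higher and 1.31% lower at 8 months by the size rule. At 2 months these shares were 2.41% and 1.77%. Of 39 listed genes of other P450 families 10 were on the array and 8 passed the filter, of which limma called 0 over both ages (0 at an unadjusted p below 0.05), and 1 passed the size rule, Cyp1b1, which oxidises oestradiol, at 0.79 ± 0.78 at 8 months and -0.04 ± 0.13 at 2 months. From replicates 3 and 4 alone Cyp1b1 was at 0.50 at 8 months, under 1.5-fold. Cyp7b1, named after its values were seen, had a larger 8-month mean of 1.01 ± 0.90 but not 1 sign on every array. It was at 1.15 from replicates 3 and 4, and at -0.02 ± 0.31 at 2 months. The median of the 8 genes was 0.03 at 8 months and -0.03 at 2 months. Of 7 listed electron donors Cyb5r3 passed the filter, at -0.15 and 0.09. Of 6 genes of haem synthesis and breakdown 0 were called (2 at an unadjusted p below 0.05) and 0 passed the size rule. Of 13 receptors and partners that regulate P450 genes 0 were called (2 at an unadjusted p below 0.05), and 1 passed the size rule, Cebpa, a transcription factor of liver and fat, at -0.06 ± 0.34 at 8 months and 0.71 ± 0.25 at 2 months. None of these passed in the direction of the male pool.

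Among 17 other drug-oxidising enzymes limma called 0 (1 at an unadjusted p below 0.05), and 3 were higher in the female pool at 2 months by the size rule. All were aldehyde dehydrogenases: Aldh1a7 at 0.34 ± 0.49 at 8 months and 0.88 ± 0.17 at 2 months, Aldh1a1 at -0.03 ± 0.35 and 0.68 ± 0.12, and Aldh3a1 at -0.05 ± 0.46 and 0.67 ± 0.16. Of 17 conjugating enzymes and 13 drug transporters 0 were called (0 at an unadjusted p below 0.05 in each list), and 0 passed the size rule at either age. The 15 arachidonic acid enzymes had 0 calls (1 at an unadjusted p below 0.05) and 1 gene past the size rule in both directions, Ptgds, a prostaglandin D synthase, at 1.59 ± 0.34 at 8 months and -0.72 ± 0.09 at 2 months. Of 6 genes with a sex bias in mouse liver outside the family 0 were called (0 at an unadjusted p below 0.05) and 0 passed the size rule. Cyp7b1 stands on this list too.

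Markers of other tissues passed the size rule at the same ages as Cyp2 rows. Of 12 lung and airway markers, 2 were higher in the female pool at 8 months by the size rule and 5 at 2 months, with a range of -0.06 to 4.21 at 8 months and -0.31 to 1.76 at 2 months. On the female side were 10 of the 12 at 8 months and 6 at 2 months, when the median was 0.01 and the lowest were Lyz2 at -0.31, Napsa at -0.26 and Slc34a2 at -0.23, named after their values were seen. The surfactant protein Sftpc was at 3.12 ± 1.65 at 8 months and 1.76 ± 0.31 at 2 months, Chil1 at 4.21 ± 1.05 and -0.06 ± 0.17, the airway secretoglobin Scgb3a1 at -0.02 ± 0.36 and 1.26 ± 0.09, and Sftpd at 0.37 ± 0.48 and 1.07 ± 0.36. Aldh1a7 stands on this list too. From replicates 3 and 4 alone Sftpc was at 3.89 and Chil1 at 3.45 at 8 months, and the median of the list was 0.23, against 0.37 from all arrays. Scgb1a1, the club cell marker, was chosen after its values were seen because Cyp2f2 marks the same cells, and was at -0.06 ± 0.87 at 8 months and 0.66 ± 0.09 at 2 months.

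Of 7 liver markers 0 passed the size rule at either age, with a range of -0.27 to 0.56 at 8 months and 0.10 to 0.37 at 2 months, when all 7 were on the female side. Albumin was not among them. Of 12 thymus and T cell markers 12 were higher at 2 months, by 0.91 to 4.48 with a median of 2.69, against a range of -0.63 to 1.15 and a median of 0.21 at 8 months, when 1 was higher and 1 lower by the size rule. Rag1, which cuts antigen receptor genes in thymocytes, was at 1.15 ± 0.90 at 8 months and 4.48 ± 0.60 at 2 months, Cd8a at 0.41 ± 0.41 and 3.74 ± 0.93, Dntt at 0.19 ± 0.52 and 3.60 ± 0.61, and Tbata at 0.29 ± 0.11 and 3.14 ± 0.41. Of 12 fat markers 5 were higher at 2 months, with a range of -0.58 to 0.34 at 8 months and -0.23 to 2.99 at 2 months. From replicates 3 and 4 the 8-month median was 0.28 for the thymus and T cell list and -0.14 for the fat list. The fat markers included Ucp1 of brown fat at 0.34 ± 0.52 at 8 months and 2.99 ± 0.21 at 2 months, Cidec at 0.26 ± 0.25 and 1.71 ± 0.23, and Car3 at 0.32 ± 0.32 and 1.33 ± 0.15. The 2-month median of the fat list was 0.41. On the male side at 2 months were 3 of the 12, Ppargc1a at -0.23, Cox7a1 at -0.08 and Elovl3 at -0.07, named after their values were seen.

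Of 10 epithelial markers 2 were higher at 2 months, Krt8 at -0.07 ± 0.61 at 8 months and 1.45 ± 0.49 at 2 months and Epcam at 0.40 ± 0.41 and 1.07 ± 0.39. Of 12 heart muscle markers that passed the filter, of 16 listed, and of 7 endothelial markers 0 passed the size rule, with medians of -0.26 and -0.24 at 8 months and -0.01 and -0.22 at 2 months. Over both ages limma called 0 of the genes on these 7 marker lists, while 9 thymus and T cell genes, 3 each of lung and airway, fat, endothelium and epithelium, and 1 each of liver and heart muscle had an unadjusted p below 0.05, beside 10.4% of all tested rows. The tables hold ratios and no levels, so the labelled tissue could not be checked by the level of its markers, how much of each tissue a pool held is unknown, and the part of these markers in the Cyp2 ratios was not tested.

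**Figure D5:**
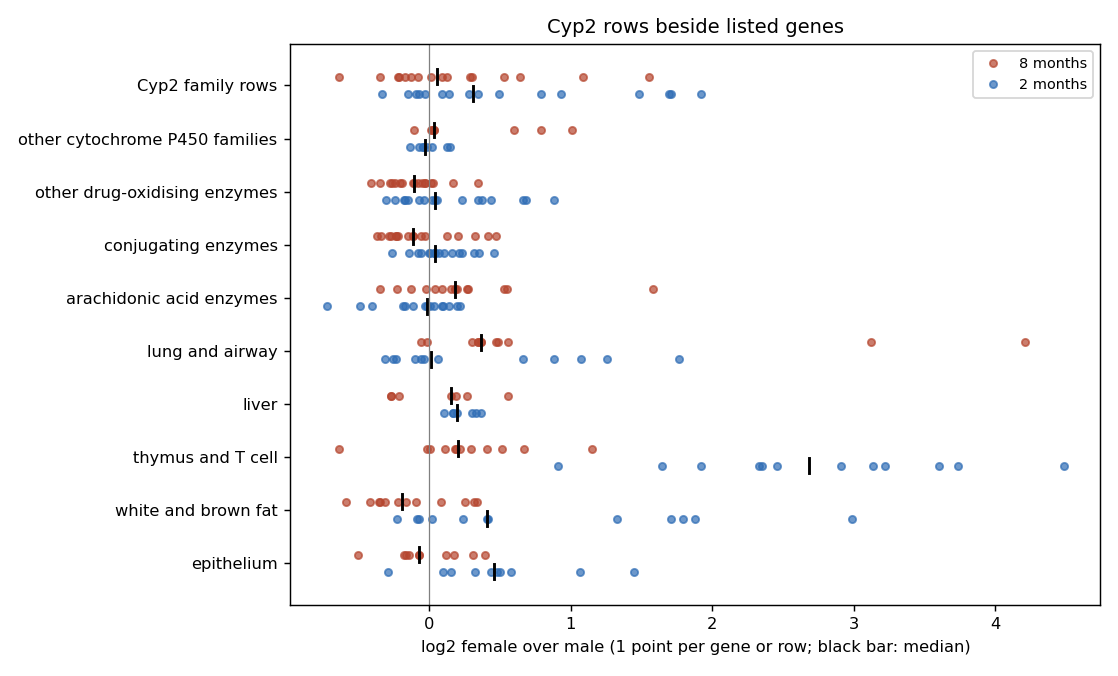
Log2 ratio of the female over the male pool (horizontal axis) for the 16 Cyp2 rows and the genes of 9 lists that passed the filter, 1 point per gene or row, with 8 months in red above 2 months in blue and black bars at the medians. The 2-month medians are 0.31 for the Cyp2 rows, 2.69 for thymus and T cell markers and -0.03 for other P450 families.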

How the data were processed

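The labels describe 8 two-colour cDNA arrays of pooled heart RNA. The deposited values are log10 ratios of Cy5 over Cy3 from Agilent Feature Extraction 7.1.1, per the labels; any later normalization was not given in the sources used here. Values were limited at 2 and -2, each array had a median of 0, and 6.38 to 13.9% of values per array were exactly 0 and taken as no measurement, leaving 8269 to 8994 per array. No intensities were analysed here, so signal over background cannot be given, and precision is limited by how many arrays there are.

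Ratios were converted to log2, turned to female over male by the labelled dyes, and rows of 1 symbol averaged; each named Cyp2 gene had 1 probe. Platform symbols were updated through RefSeq (6600 rows; 71 kept the platform symbol, 400 had several symbols and 2536 none). All 13 named Cyp2 genes matched a promoter window. The 4 arrays of an age share 2 pools and counted as 1 replicate, so limma 3.58.1 in R 4.3.3 (lmFit, eBayes, two-sided, Benjamini-Hochberg over 7812 rows, adjusted p below 0.05) ran on 2 age means with 1 residual degree of freedom. The fit was tested on simulated data. The members and gene lists were chosen with earlier results of these data known. Every Cyp2 member was named, and per list up to 4 genes past the size rule or called, by their mean over both ages. The 3 nearest genes were found per member and are not printed for every member. Alternatives covered exact zeros, the filter, centring, scaling, the drift, the 8-month arrays used, probe averaging, the size rule, the replicate number and dye as terms, and each array left out.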

Additional observations from a re-analysis of the deposited data

Results flagged for a closer look

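Probe 4753, annotated to Cyp2a5 and Cyp2a4, had 1 array at 8 months far from the others. Replicate 2 was at -1.12 while replicates 1, 3 and 4 were at 0.01, -0.17 and -0.09, so its gap to the nearest took up 0.844 of the range, above the critical value for 4 arrays. The local median at this probe was -0.30 on that array and 0.44 on replicate 1. The flag rests on the values as deposited. With the drift subtracted, replicates 1 to 4 were at -0.44, -0.82, -0.19 and -0.15, so replicate 2 stood less far apart. In all, 33 groups of arrays were examined in this way, and chance flags about 1 in 20.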

How the results depend on the processing

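Of 789 values of Cyp2 members under the alternatives, 782 moved by less than the SD of the arrays and 7 moved further, all when each array was scaled to 1 interquartile range: Cyp2f2 at 2 months then was at 2.56 and its age difference at -3.03, Cyp2a12 at 1.04, probe 3525 at 2.28, probe 4753 at 2.24, Cyp2b10 at 1.97 and Cyp2e1 at 1.26, all at 2 months. Of the values past the size rule 0 changed sign. Cyp2f2 at 8 months, not past it, was at 0.06 without replicate 4. The counts over all rows were less steady. The 7 rows that limma called over both ages became 0 with exact zeros kept as values (887 at an unadjusted p below 0.05), 3 with scaled arrays, 1 with the drift subtracted, 1 with the 8-month value from replicates 3 and 4, and 4 to 104 when 1 array was left out (100 without replicate 1 and 104 without replicate 4 at 8 months). Fits over single arrays, which measure technical spread only, called 69 rows with a replicate block and 74 with a dye term. Deviations from the age means correlated at -0.16, -0.10, 0.54 and 0.55 between the ages for replicates 1 to 4. Over all tested rows the ratios of replicate 3 at 8 months correlated at 0.46 with replicate 1 and 0.47 with replicate 3 at 2 months. Replicate 4 at 8 months correlated at 0.48 with replicate 2 and 0.53 with replicate 4 at 2 months. These pairs share the dye orientation, so a pairing by replicate number cannot be told apart from the dye. The 233 rows past the size rule at 8 months became 154 with scaled arrays, 67 at 2-fold and 225 to 436 with 1 array left out. The 326 at 2 months became 592 with scaled arrays, 87 at 2-fold and 295 to 361 with 1 array left out. The 257 for the age difference became 470 from replicates 3 and 4, 445 as the mean difference within replicate numbers (the replicate block) and 278 to 446 with 1 array left out. The causes were not tested. With 1 pool per sex and age, no setting measures the spread between animals.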
